A study of Homo sapiens with 9 samples.

Results

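The genes of the hypoxia response that lie outside glycolysis, 38 in number, were read from RNA-seq of 3 cell lines: the HIF subunits, the enzymes that mark HIF for decay, and genes known to be induced when oxygen is low. They were chosen by symbol, with no measured value in the rule but with earlier results of these data known. All 38 were found among the 60606 genes of the table. Of these, 37 had a mean of more than 1 TPM (transcripts of the gene out of 1000000, which allows for gene length and library size) and entered a test of 22909 genes. EGLN3, the remaining member, was listed at 0.0315 to 0.177 TPM and was not tested.

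The study compared U87, an established human glioblastoma cell line left as wild type, with radioresistant glioblastoma stem cells (GSCs) raised from it and with radioresistant cells differentiated from those GSCs (Diff cells), in 3 libraries per line and 9 in all. The GSCs grew without serum, with EGF and bFGF, and were irradiated repeatedly. The Diff cells came from the irradiated GSCs, from cells picked out of colonies, and like U87 they grew in DMEM with serum. No GSC without irradiation is analysed here, so medium, irradiation and the stem state cannot be told apart between GSCs and U87, and medium, differentiation and the picking of colonies cannot be told apart between Diff cells and GSCs. Between Diff cells and U87, irradiation, the passage through a stem cell stage and the picking of colonies cannot be told apart either, and the oxygen level of the cultures is not given in the sources used here. The study's general note on statistics speaks of at least 3 biological replicates and does not name the RNA-seq. Whether the 3 libraries of a line were separate cultures is not stated, and the p-values below therefore measure the spread between libraries only.

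Cells respond to low oxygen through HIF alpha proteins, chief among them HIF-1 alpha (from HIF1A) and HIF-2 alpha (from EPAS1). In oxygen, prolyl hydroxylases of the EGLN family modify the alpha subunit, the VHL ubiquitin ligase recognises it and the protein is destroyed, so that control falls mainly on the protein and not on its mRNA. When oxygen is low the alpha subunit persists, pairs with ARNT and binds short DNA elements at genes for pH control, blood vessel growth, mitophagy, collagen maturation and HIF feedback, and in glioblastoma this program is a known mark of the tissue around necrosis.

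Of the 7 tested mRNAs of the HIF system itself, EGLN1 alone passed the fold limit against U87, EPAS1 and ARNT changed by less, and the other 4 did not pass the adjusted p, whereas most of the target genes fell. In Diff cells against U87, 25 of the 37 tested members were lower and 0 were higher at an adjusted p under 0.05 with a log2 fold change beyond 1, where 6.36% of all 22909 tested genes were lower and 5.92% higher. In GSCs against U87, 20 members were lower and 1, the creatine transporter SLC6A8, was higher, beside 7.53% and 9.52% of all tested genes. Diff cells stood below GSCs in 14 members and above them in 0, beside 5.36% and 2.66% of all tested genes. Median log2 fold changes of the 37 members were -1.65, -1.09 and -0.79 in the 3 comparisons, and those of all tested genes were -0.04, 0.02 and -0.06. By adjusted p alone, 31, 31 and 27 members differed, beside 39.4%, 48.6% and 34.8% of all tested genes, and of these 29, 26 and 26 were lower. No member was higher past both limits in Diff cells, against U87 or against GSCs, and at an unadjusted p under 0.05 (limma) the members higher there were 2 and 1. Each line enters more than 1 of these comparisons, so the 3 counts are not independent of each other.

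**Figure D1:**
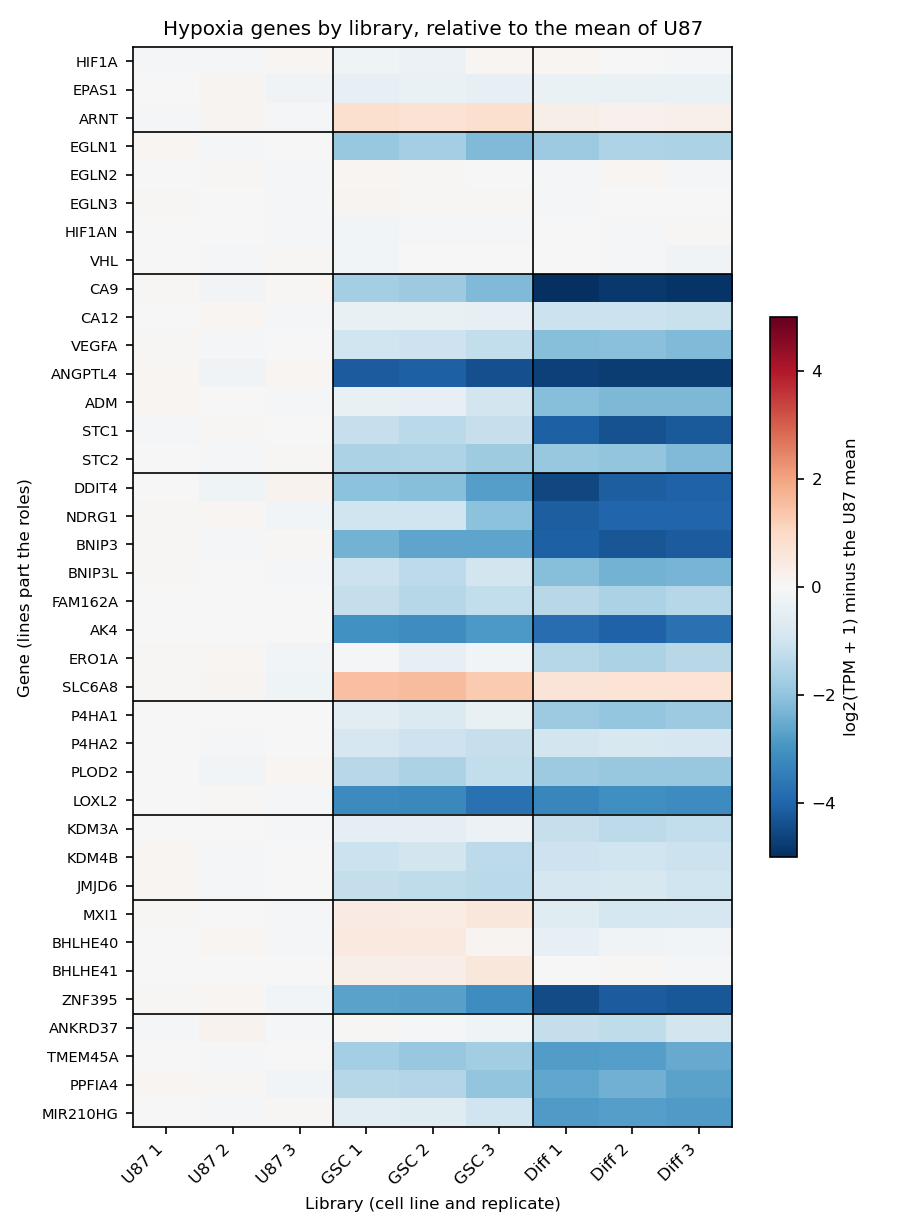
Heat map of the 38 genes (rows, parted by role) in the 9 libraries (columns), coloured by log2(TPM + 1) minus the mean of the 3 U87 libraries. The HIF subunits at the top are pale throughout, the rows of CA9, ANGPTL4, STC1, DDIT4, NDRG1, BNIP3, AK4 and ZNF395 are darkest in the Diff libraries, and SLC6A8 is above U87 in the GSC and Diff libraries.

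**Figure D2:**
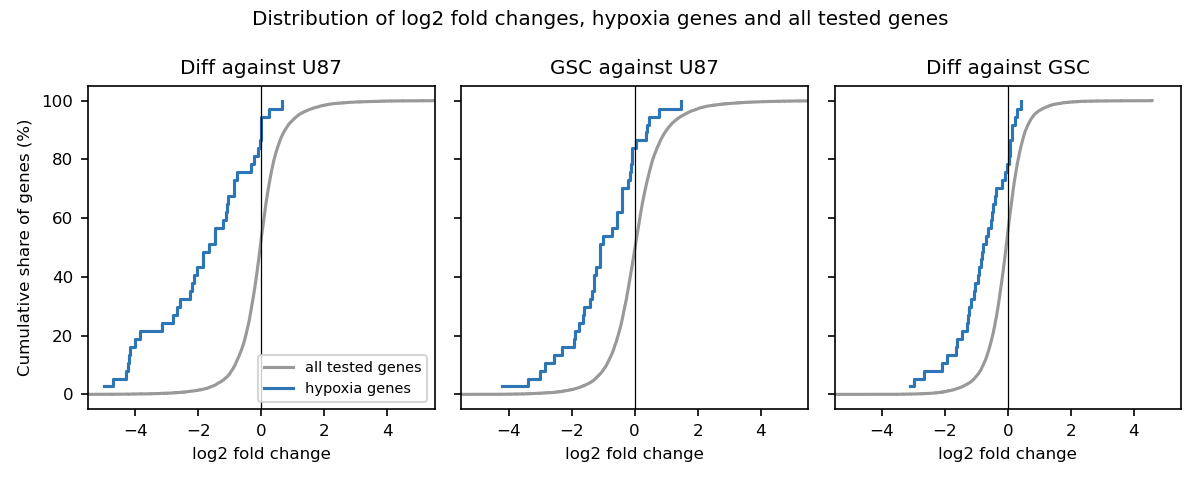
Cumulative share of genes (vertical axis, percent) at or below each log2 fold change (horizontal axis) for the 37 tested hypoxia genes and for all 22909 tested genes, in the 3 comparisons. The curve of the hypoxia genes lies to the left, with medians of -1.65, -1.09 and -0.79 against -0.04, 0.02 and -0.06.

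Of the DNA that precedes these genes, RefSeq promoter windows (GRCh38.p14, 250 bases before to 50 bases after a start of transcription) were at hand for 30 of the 38 members, in 38 windows because some genes have several starts. VHL, VEGFA, STC1, NDRG1, BNIP3L, LOXL2, JMJD6 and ZNF395 had no window. The core of the HIF-binding element was searched as ACGTG and GCGTG on both strands. At least 1 of them was found in 29 of the 38 windows (76.3%), in 48.4% of all 35116 windows of that length and in 59.4% of the 16047 windows of tested genes. ACGTG alone was in 19 member windows (50%), in 21.4% of all windows and in 25.1% of those of tested genes, and GCGTG was in 21 (55.3%), in 36.5% and in 47.1%. These shares count windows, so a gene with several starts enters more than once. By gene, 24 of the 30 members with a window held either motif in some window, and 18 held ACGTG. The shares by gene over all genes were not computed. Such a match describes letters and not binding. The 250 bases before the start are shown for 5 members, on the strand of the gene, with every match in capitals: CA9, DDIT4 and BNIP3, which fell far in Diff cells, MIR210HG, which fell chiefly in the step from GSCs to Diff cells, and SLC6A8, which rose. CACGT and CACGC are ACGTG and GCGTG read on the other strand, and CACGTG holds ACGTG on both. The windows are chr9:35673678-35673927 (plus strand) for CA9, chr10:72273674-72273923 (plus) for DDIT4, chr10:131981924-131982173 (minus) for BNIP3, chr11:568458-568707 (minus) for MIR210HG and chrX:153687676-153687925 (plus) for SLC6A8.
CA9: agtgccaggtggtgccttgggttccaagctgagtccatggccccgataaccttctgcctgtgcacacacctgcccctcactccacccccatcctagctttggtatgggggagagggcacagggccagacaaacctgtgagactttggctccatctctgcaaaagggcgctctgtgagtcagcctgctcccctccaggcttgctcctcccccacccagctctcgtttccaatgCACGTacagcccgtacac
DDIT4: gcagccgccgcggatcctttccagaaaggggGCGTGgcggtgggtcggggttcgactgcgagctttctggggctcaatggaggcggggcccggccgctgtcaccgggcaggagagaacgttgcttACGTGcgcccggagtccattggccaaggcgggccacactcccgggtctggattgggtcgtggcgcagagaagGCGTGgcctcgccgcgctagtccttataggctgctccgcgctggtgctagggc
BNIP3: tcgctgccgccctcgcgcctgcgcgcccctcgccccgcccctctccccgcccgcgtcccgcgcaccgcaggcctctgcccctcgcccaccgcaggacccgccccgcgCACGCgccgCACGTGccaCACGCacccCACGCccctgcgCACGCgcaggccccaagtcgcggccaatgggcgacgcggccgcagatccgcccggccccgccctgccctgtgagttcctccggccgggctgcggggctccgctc
MIR210HG: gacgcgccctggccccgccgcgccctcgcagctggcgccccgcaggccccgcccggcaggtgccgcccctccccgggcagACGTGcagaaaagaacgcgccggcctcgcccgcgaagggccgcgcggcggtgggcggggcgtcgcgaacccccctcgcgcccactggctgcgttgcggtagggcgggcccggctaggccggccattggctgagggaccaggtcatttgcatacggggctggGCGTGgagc
SLC6A8: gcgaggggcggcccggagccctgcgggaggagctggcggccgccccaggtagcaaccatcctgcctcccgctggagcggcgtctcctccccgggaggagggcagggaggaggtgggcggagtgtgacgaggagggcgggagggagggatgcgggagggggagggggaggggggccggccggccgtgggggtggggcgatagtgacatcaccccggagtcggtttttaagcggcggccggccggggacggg
CA9 held 1 match, 18 bases before the start, BNIP3 held 5 separate runs of capitals within its window, DDIT4 held 3 and MIR210HG 2. The stretch before SLC6A8 held none of these letters. Other members differed from those shown. The windows of TMEM45A, called lower in both irradiated lines, and of P4HA2, called lower in GSCs, held no match either. Those of BHLHE40 and BHLHE41, called in no comparison, held 4 and 2 matches to ACGTG. Here each strand was counted, so that a CACGTG gave 2 matches. By that count BNIP3 held 2 matches to ACGTG and 4 to GCGTG, and BHLHE41 also held 1 to GCGTG.

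Among the HIF subunits, HIF1A was abundant in every library, with 425, 424 and 466 TPM in U87, 374, 359 and 469.7 in GSCs and 470.4, 434 and 415 in Diff cells. The 3 ranges overlapped. The difference of Diff cells from U87 had a 95% interval of -0.23 to 0.24 on the log2 scale, and that of GSCs from U87 one of -0.37 to 0.09 (limma, adjusted p = 0.983 and 0.301). EPAS1, the other alpha subunit, was measured at 369, 397 and 325 TPM in U87, 273, 290.0 and 269.6 in GSCs and 287, 284 and 289 in Diff cells. All 6 libraries of the irradiated lines lay below the 3 of U87, and the difference was small, -0.34 (SE 0.07, limma adjusted p = 0.00572) on the log2 scale in Diff cells and -0.38 (SE 0.07, limma adjusted p = 0.00215) in GSCs. The 24 nearest tested genes around EPAS1 on chromosome 2 had medians of -0.22 and -0.42, and in GSCs 12 of these 24 were lower than EPAS1. ARNT, the partner of both, went the other way. Its levels were 42.7, 48.6 and 42.5 TPM in U87, 77.4, 75.1 and 78.4 in GSCs and 54.3, 52.2 and 53.3 in Diff cells, and the 3 lines were fully separated, with GSCs highest and U87 lowest. The rise in GSCs was 0.78 (SE 0.06, limma adjusted p = 1.07e-05), short of the fold limit, and that in Diff cells was 0.25 (SE 0.06, limma adjusted p = 0.00975).

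Of the oxygen sensors, EGLN1 (PHD2, the main prolyl hydroxylase and itself a HIF target) fell in both irradiated lines, from 37.8, 33.1 and 36.05 TPM in U87 to 8.82, 10.4 and 6.99 in GSCs and 9.45, 11.4 and 11.3 in Diff cells. No library of the irradiated lines came near the lowest of U87, and GSCs and Diff cells overlapped. Relative to U87 the change on the log2 scale was -1.92 (SE 0.13, limma adjusted p = 5.46e-06) in GSCs and -1.65 (SE 0.13, limma adjusted p = 2e-05) in Diff cells. The genes on either side of EGLN1 on chromosome 1 also leaned lower, with a median over 24 neighbours of -0.63 in GSCs and -0.31 in Diff cells, and their part in the result was not tested. EGLN2 (PHD1) stayed within 4.96 to 5.96 TPM over the 9 libraries. HIF1AN, the asparaginyl hydroxylase that blocks coactivator binding, ranged from 24.8 to 27.9, and VHL from 18.5 to 22.4. The ranges of the lines overlapped for all 3. Their 95% intervals for Diff cells against U87 were -0.27 to 0.19, -0.14 to 0.13 and -0.27 to 0.09 on the log2 scale, and for GSCs against U87 -0.18 to 0.28, -0.21 to 0.06 and -0.24 to 0.11. EGLN3 (PHD3), strongly induced by hypoxia in many cells, was near 0 in all 3 lines, as given above, while its processed pseudogene EGLN3P1 was listed at 6.93 ± 0.08 TPM in U87, 7.04 ± 0.16 in GSCs and 4.65 ± 0.32 in Diff cells (SD, n = 3). How the authors' counting shared reads between copies is not given in the sources used here.

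**Figure D3:**
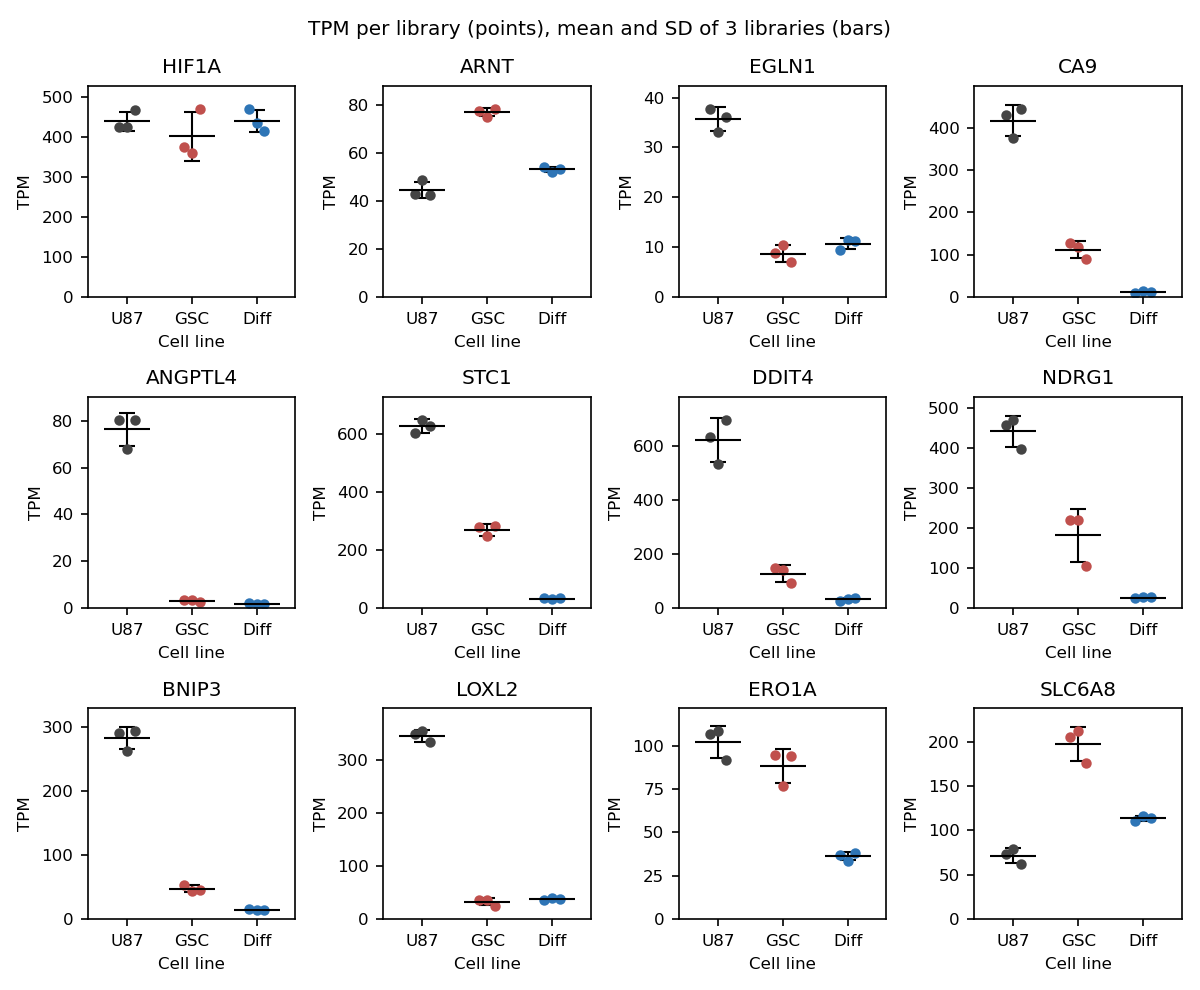
TPM (vertical axes, linear and starting at 0) of 12 of the genes in U87, GSCs and Diff cells, with 1 point per library and bars for the mean and SD of 3 libraries. HIF1A overlaps between the lines, CA9, STC1, DDIT4, NDRG1 and BNIP3 step down from U87 to GSCs to Diff cells, ANGPTL4 and LOXL2 are low in both irradiated lines, ERO1A is low in Diff cells, and ARNT and SLC6A8 are highest in GSCs.

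All 7 genes for secreted factors and carbonic anhydrases were lower in Diff cells, and 5 of them in GSCs as well. CA9, the membrane carbonic anhydrase that exports acid equivalents and serves as a standard hypoxia marker, fell furthest among the tested members in Diff cells on the log2(TPM + 1) scale. It was at 430.2, 375 and 445 TPM in U87, 128, 117 and 90.3 in GSCs and 10.03, 13.6 and 13.03 in Diff cells. The lines formed 3 separate steps. Mean TPM was 34.1-fold higher in U87 than in Diff cells and 3.72-fold higher than in GSCs, and the log2 fold changes were -4.99 (SE 0.15, limma adjusted p = 7.98e-08) and -1.90 (SE 0.15, limma adjusted p = 1.09e-05). Of the exonic bases of CA9, 38.5% lie opposite ARHGEF39, which was at 9.84, 7.04 and 5.49 TPM in U87, GSCs and Diff cells (means of 3 libraries). CA12, a related enzyme, changed less. It stood at 169, 176 and 154 TPM in U87, 128, 127 and 125 in GSCs and 79.3, 77.6 and 75.7 in Diff cells, and only Diff cells passed the fold limit, with -1.09 (SE 0.06, limma adjusted p = 1.37e-06).

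ANGPTL4, a secreted inhibitor of lipoprotein lipase, fell nearly as far in GSCs as in Diff cells. Its libraries gave 80.4, 68.1 and 80.5 TPM in U87, 3.34, 3.54 and 2.69 in GSCs and 2.06, 1.88 and 1.84 in Diff cells. Every U87 library was far above the others, and Diff cells lay just under GSCs without overlap. On the log2 scale it changed by -4.72 (SE 0.11, limma adjusted p = 2.82e-08) in Diff cells and -4.21 (SE 0.11, limma adjusted p = 2.94e-08) in GSCs against U87, and the difference between Diff cells and GSCs was -0.51 (SE 0.11, limma adjusted p = 0.00691). As a ratio of mean TPM, U87 was 39.6-fold above Diff cells, a wider ratio than that of CA9. STC1, a secreted glycoprotein hormone, behaved otherwise: it had, with DDIT4, the highest mean level of the members in U87, at 601, 649 and 628 TPM, and kept 279, 247 and 281 TPM in GSCs but 35.6, 29.7 and 33.5 in Diff cells. Here the larger step lay between GSCs and Diff cells, with -2.99 (SE 0.08, limma adjusted p = 1.76e-07). Against U87 the values were -4.21 (SE 0.08, limma adjusted p = 1.48e-08) in Diff cells and -1.22 (SE 0.08, limma adjusted p = 3.28e-06) in GSCs, where its neighbours on chromosome 8 had a median of -1.22 as well. Its paralog STC2 dropped mainly between U87 and GSCs, with 98.5, 91.9 and 100.5 TPM in U87, 31.6, 32.8 and 27.6 in GSCs and 25.1, 23.9 and 20.4 in Diff cells, and the log2 fold changes against U87 were -2.03 in Diff cells and -1.63 in GSCs.

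VEGFA, the principal angiogenic growth factor, was graded. Its levels were 315, 294 and 304 TPM in U87, 151, 149 and 129 in GSCs and 68.3, 70.1 and 64.8 in Diff cells, 3 groups without overlap, each about as far below the one before on the log2 scale. The first step, from U87 to GSCs, was -1.09 (SE 0.07, limma adjusted p = 2.99e-06), the next, from GSCs to Diff cells, was -1.06 (SE 0.07, limma adjusted p = 1.09e-05), just past the fold limit and -0.999 under median-ratio scaling, and together they came to -2.15 (SE 0.07, limma adjusted p = 1.12e-07). ADM, the vasodilator peptide adrenomedullin, was 114, 104 and 102 TPM in U87, 81.6, 80.4 and 55.6 in GSCs and 23.4, 21.6 and 21.8 in Diff cells. GSCs lay closer to U87 than to Diff cells, at -0.57 on the log2 scale against U87, short of the fold limit, and the change in Diff cells was -2.21 (SE 0.13, limma adjusted p = 3.80e-06).

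Of the 8 stress, mitochondrial and transport genes, 7 were lower in Diff cells and 6 in GSCs. DDIT4 (REDD1, which restrains mTORC1 under energy and oxygen stress) was measured at 635, 534 and 698 TPM in U87, 149, 141 and 91.2 in GSCs and 25.6, 34.4 and 36.8 in Diff cells. The 3 lines did not overlap, and the log2 fold change was -4.24 (SE 0.20, limma adjusted p = 1.04e-06) in Diff cells and -2.31 (SE 0.20, limma adjusted p = 2.35e-05) in GSCs. Of its exonic bases, 41.2% lie opposite DDIT4-AS1. NDRG1, a stress-responsive gene long used as a hypoxia marker, had 456, 470.2 and 398 TPM in U87, 221, 219 and 105 in GSCs and 24.1, 27.2 and 27.4 in Diff cells. GSC replicate 3 was well below the other GSC libraries and still above every Diff library. Against U87 it changed by -4.02 (SE 0.25, limma adjusted p = 4.61e-06) in Diff cells and -1.35 (SE 0.25, limma adjusted p = 0.00214) in GSCs, and without GSC replicate 3 the latter was -0.997 and no longer past the fold limit.

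BNIP3 and BNIP3L (NIX) are mitophagy receptors, which mark mitochondria for removal. BNIP3 gave 291, 263 and 295 TPM in U87, 53.7, 44.6 and 44.8 in GSCs and 15.8, 13.5 and 14.98 in Diff cells, with the largest part of the fall already present in GSCs. Relative to U87 it changed by -2.55 (SE 0.09, limma adjusted p = 1.17e-07) in GSCs and -4.17 (SE 0.09, limma adjusted p = 2.45e-08) in Diff cells. BNIP3L stood at 254, 246 and 231 TPM in U87, 117, 96.5 and 130.0 in GSCs and 55.3, 47.1 and 47.5 in Diff cells, again with no overlap between lines. Its log2 fold change was -2.27 (SE 0.11, limma adjusted p = 1.02e-06) in Diff cells and -1.09 (SE 0.11, limma adjusted p = 4.88e-05) in GSCs, and the latter was -0.98 without GSC replicate 2 and stood beside a median of -0.91 among its neighbours on chromosome 8. AK4, a mitochondrial adenylate kinase, dropped from 162, 161 and 155 TPM in U87 to 18.7, 17.4 and 20.7 in GSCs and 10.5, 8.72 and 11.1 in Diff cells, -3.01 and -3.86 on the log2 scale. Its processed pseudogene AK4P1 was at 7.79 ± 4.79 TPM in U87 and at 0.969 ± 0.625 and 1.99 ± 0.93 in GSCs and Diff cells (SD, n = 3), beside 159 ± 3.45 TPM of AK4 in U87.

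FAM162A, a mitochondrial protein linked to hypoxic cell death, was lower in both irradiated lines. It had 20.04, 19.4 and 19.7 TPM in U87, 8.06, 6.80 and 7.80 in GSCs and 6.95, 6.003 and 6.76 in Diff cells, and the ranges of GSCs and Diff cells overlapped. Its log2 fold changes against U87 were -1.45 in Diff cells and -1.28 in GSCs, and the interval for Diff cells against GSCs was -0.38 to 0.03. ERO1A, the oxidase that drives disulfide bonding in the endoplasmic reticulum, was well below the other lines in Diff cells. GSCs and U87 overlapped, with 107, 109 and 91.6 TPM in U87, 94.4, 76.9 and 93.9 in GSCs and 37.3, 33.5 and 38.2 in Diff cells. Diff cells differed from U87 by -1.47 (SE 0.10, limma adjusted p = 7.45e-06) and from GSCs by -1.26 (SE 0.10, limma adjusted p = 3.55e-05), and the difference of GSCs from U87 was -0.21 (SE 0.10, limma adjusted p = 0.117), with an interval of -0.44 to 0.02. SLC6A8, which imports creatine, was the exception of the group. It rose from 73.8, 78.5 and 61.8 TPM in U87 to 205, 213 and 176 in GSCs and 111, 116 and 114 in Diff cells, with no overlap. The rise was 1.46 (SE 0.10, limma adjusted p = 4.44e-06) in GSCs and 0.67 (SE 0.10, limma adjusted p = 0.000683) in Diff cells, the latter under the fold limit. Its near-identical copy SLC6A10P was listed at 0 in all 9 libraries.

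**Figure D4:**
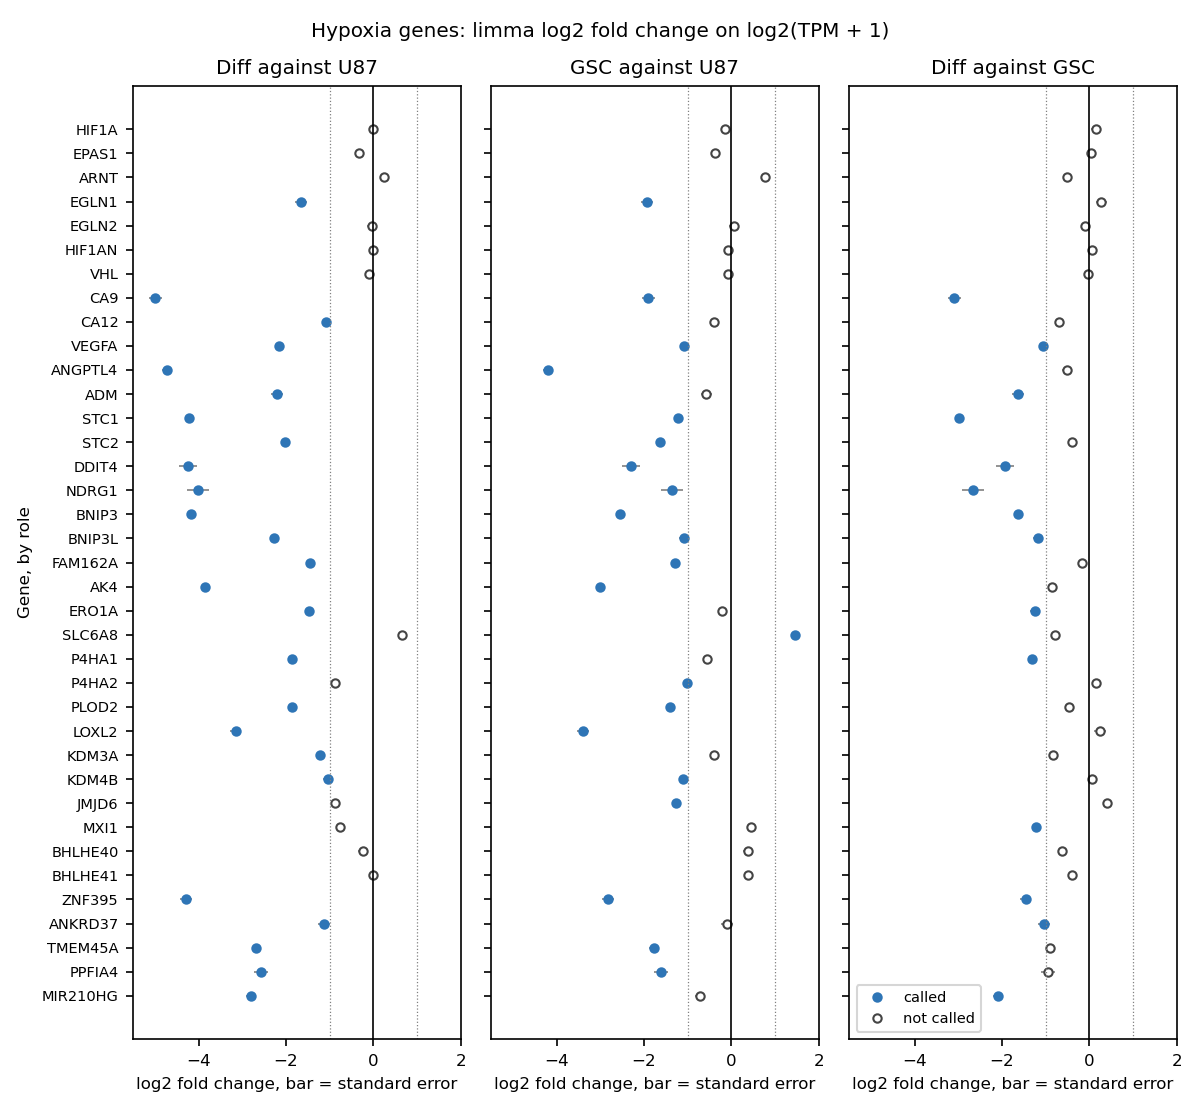
Log2 fold change (horizontal axis, points; bars are standard errors from limma) of the 37 tested genes in the 3 comparisons, in the order of the roles from top to bottom. Filled points passed the adjusted p and the fold limits dotted at -1 and 1: 25 on the left, 21 in the middle (SLC6A8 to the right of 0) and 14 on the right.

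The 4 collagen-modifying enzymes were all lower in both irradiated lines by adjusted p, and 3 in each passed the fold limit. LOXL2, a lysyl oxidase that cross-links collagen, fell most, from 347, 354 and 332 TPM in U87 to 36.6, 35.8 and 24.9 in GSCs and 35.2, 40.4 and 38.3 in Diff cells. GSCs and Diff cells overlapped far below U87. Its change was -3.39 (SE 0.13, limma adjusted p = 2.04e-07) in GSCs and -3.15 (SE 0.13, limma adjusted p = 5.15e-07) in Diff cells. PLOD2, the lysyl hydroxylase of collagen telopeptides, had 186, 166 and 198 TPM in U87, 68.5, 60.8 and 77.2 in GSCs and 51.6, 48.3 and 49.1 in Diff cells. All 3 lines were apart, and most of the fall lay between U87 and GSCs, at -1.40, with -1.86 in Diff cells. P4HA1 and P4HA2 are alternative catalytic subunits of collagen prolyl 4-hydroxylase and followed separate patterns. P4HA1 fell mainly in the step to Diff cells, with 83.7, 80.4 and 82.1 TPM in U87, 55.7, 48.7 and 63.99 in GSCs and 22.4, 21.02 and 22.4 in Diff cells, which is -0.55 (SE 0.09, limma adjusted p = 0.001) in GSCs and -1.86 (SE 0.09, limma adjusted p = 1.07e-06) in Diff cells. P4HA2 was lower in both lines, with 38.5, 36.1 and 38.4 TPM in U87, 20.5, 17.99 and 16.3 in GSCs and 19.2, 21.1 and 20.3 in Diff cells and an interval of -0.05 to 0.34 for Diff cells against GSCs. Its log2 fold change of -1.01 (SE 0.08, limma adjusted p = 1.72e-05) in GSCs was at the edge of the fold limit and was -0.93, -0.99 and -0.995 without GSC replicate 3, U87 replicate 1 and U87 replicate 3 in turn, and in Diff cells it was -0.87.

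KDM3A and KDM4B, histone H3 lysine 9 demethylases that use oxygen as a substrate, and JMJD6, an oxygen-dependent lysyl hydroxylase, fell by smaller amounts, all past the adjusted p in both irradiated lines. KDM3A was graded, with 32.1, 31.4 and 30.4 TPM in U87, 22.8, 22.1 and 25.7 in GSCs and 13.7, 12.1 and 12.7 in Diff cells. It passed the fold limit in Diff cells, at -1.22 (SE 0.08, limma adjusted p = 4.08e-06). KDM4B was low in both lines, with 27.8, 24.4 and 25.02 TPM in U87, 11.7, 12.96 and 9.79 in GSCs and 11.9, 12.4 and 11.6 in Diff cells. GSCs and Diff cells overlapped, at -1.11 and -1.04 against U87, with an interval of -0.17 to 0.29 for the difference between them. The value in Diff cells was -0.99 without U87 replicate 1. JMJD6 was lowest in GSCs, with 20.9, 18.8 and 19.5 TPM in U87, 7.98, 7.56 and 7.17 in GSCs and 10.6, 11.01 and 9.40 in Diff cells. It was the 1 member higher in Diff cells than in GSCs by adjusted p, by 0.40 (SE 0.09, limma adjusted p = 0.00645), under the fold limit.

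MXI1, BHLHE40 and BHLHE41, which are transcriptional repressors, differed from most other targets in being above U87 in GSCs by adjusted p. MXI1, which opposes MYC by pairing with MAX, was above U87 in GSCs and below it in Diff cells, with 19.1, 18.7 and 17.00 TPM in U87, 24.7, 23.7 and 27.4 in GSCs and 11.6, 9.50 and 9.85 in Diff cells. None of the ranges overlapped. Against U87 it differed by 0.45 (SE 0.09, limma adjusted p = 0.00383) in GSCs and -0.77 (SE 0.09, limma adjusted p = 0.000212) in Diff cells, both under the fold limit, and the difference between Diff cells and GSCs, -1.22 (SE 0.09, limma adjusted p = 2.68e-05), passed it. The median log2 fold change of the neighbours of MXI1 on chromosome 10 in GSCs was 0.74 over the nearest 12 tested genes on either side and 0.03 over the nearest 25. BHLHE40 (DEC1), a clock-linked repressor, ranged from 363 to 677 TPM, and its paralog BHLHE41 (DEC2) from 63.9 to 99.2. Both were somewhat higher in GSCs than in U87, by 0.38 (SE 0.11, limma adjusted p = 0.0214) and 0.39 (SE 0.07, limma adjusted p = 0.00196), and neither passed in Diff cells against U87. ZNF395, a zinc finger factor induced by hypoxia, fell as the main targets did. Its libraries gave 112, 116 and 98.4 TPM in U87, 15.98, 15.8 and 11.8 in GSCs and 3.92, 5.08 and 4.84 in Diff cells, 3 steps with no overlap, and the log2 fold change was -4.29 (SE 0.13, limma adjusted p = 1.02e-07) in Diff cells and -2.83 (SE 0.13, limma adjusted p = 5.65e-07) in GSCs. It shares 34.9% of its exonic bases with FBXO16 on the same strand, which was at 5.25, 1.57 and 1.11 TPM in U87, GSCs and Diff cells (means of 3 libraries).

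All 4 of the remaining induced transcripts were lower in Diff cells. MIR210HG, the host transcript of the hypoxia microRNA miR-210, was at 27.9, 26.7 and 28.9 TPM in U87, 18.3, 18.1 and 13.5 in GSCs and 3.10, 3.23 and 3.03 in Diff cells. GSCs kept more than Diff cells did, in every library. Against U87 its change was -2.81 (SE 0.11, limma adjusted p = 4.37e-07) in Diff cells, -0.72 (SE 0.11, limma adjusted p = 0.000824) in GSCs, and -2.08 between them. TMEM45A, a transmembrane protein, and PPFIA4, a liprin scaffold, were graded, with 25.3, 24.3 and 25.6 TPM in U87, 6.92, 6.03 and 6.85 in GSCs and 2.80, 2.89 and 3.49 in Diff cells for TMEM45A. PPFIA4 gave 25.8, 24.9 and 22.02 TPM in U87, 8.40, 8.22 and 5.43 in GSCs and 3.11, 3.78 and 2.89 in Diff cells. Both were separated in all 3 lines, at -2.68 and -2.57 in Diff cells and -1.78 and -1.61 in GSCs on the log2 scale. ANKRD37, a small ankyrin-repeat protein, was low throughout, with 7.77, 9.41 and 7.59 TPM in U87, 8.51, 7.55 and 6.87 in GSCs and 3.04, 2.79 and 3.92 in Diff cells. GSCs overlapped U87, with an interval of -0.41 to 0.22 for their difference, and Diff cells lay below both, at -1.13 (SE 0.14, limma adjusted p = 0.00023) against U87. The difference of Diff cells from GSCs, -1.03 (SE 0.14, limma adjusted p = 0.000604), was -0.997, -0.95 and -0.96 without Diff replicate 1, Diff replicate 2 and GSC replicate 1 in turn, and -0.89 after quantile normalization. Of its exonic bases, 35.2% lie opposite UFSP2, at 24.2, 18.4 and 19.2 TPM in U87, GSCs and Diff cells (means of 3 libraries).

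The order U87 above GSCs above Diff cells, with the 3 ranges of TPM apart, was seen in 19 of the 37 members (51.4%) and in 3.35% of all tested genes. This order was looked for after the values were seen. In GSC replicate 3 the members tended to be low: it was the lowest of the 3 GSC libraries in 21 of 37 members (56.8%) and in 30.9% of all tested genes, and its TPM had a median of 91.1% of the mean of the other GSC libraries, against 105.8% over all tested genes. Without GSC replicate 3 the order was seen in 19 members, beside 4.88% of all tested genes. Leaving a library out can only keep or raise such a count, so this does not test whether the order depends on that library. Without it, 18 members were called lower in GSCs than in U87. In bulk RNA, fewer cells that express a gene and less RNA per cell cannot be told apart.

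Neighbouring genes on some chromosomes differed between the lines as a block, so each member was set beside the 12 tested genes on either side of it (GENCODE 29 order; 24 neighbours, or 22 for BHLHE40). Over the 37 members these neighbourhood medians had a median of -0.08 for Diff cells and -0.06 for GSCs, both against U87, and of -0.01 for Diff cells against GSCs. The medians furthest below 0 lay on the short arm of chromosome 8, and in GSCs those of MXI1 (0.74), EGLN1 (-0.63), EPAS1 (-0.42), AK4 (0.39) and VHL (-0.38) came next in distance from 0. With 25 genes on either side these 5 were 0.03, -0.65, -0.20, -0.05 and -0.18. The short arm of chromosome 8 holds STC1, BNIP3L, LOXL2 and ZNF395, whose neighbours had median log2 fold changes of -1.39, -1.30, -1.23 and -0.97 in Diff cells and -1.22, -0.91, -1.12 and -1.07 in GSCs, some of the neighbours being shared. In GSCs, STC1 at -1.22 and BNIP3L at -1.09 thus lay within 0.2 of their neighbours, whereas LOXL2 and ZNF395 differed from theirs by -2.27 and -1.76. In Diff cells, the difference from the median of the neighbours was -2.82 for STC1, -3.32 for ZNF395, -1.92 for LOXL2 and -0.96 for BNIP3L. NDRG1, on the long arm, had neighbours at -0.17 and -0.03. Among the members called lower, 23 of 25 in Diff cells and 16 of 20 in GSCs (both against U87), with 11 of 14 for Diff cells against GSCs, were more than 1 log2 unit below the median of their neighbours. The exceptions were BNIP3L and KDM4B in Diff cells, STC1, BNIP3L, P4HA2 and KDM4B in GSCs, and BNIP3L, MXI1 and ANKRD37 in Diff cells against GSCs. Of these, KDM4B, P4HA2 and ANKRD37 had log2 fold changes close to the limit of 1 to begin with, and the neighbours of MXI1 had a median of -0.55, or -0.12 with 25 on either side. A call already needed a fall of more than 1, and most neighbourhood medians lay near 0. The counts of members below their neighbours therefore follow largely from the calls. The same share among all genes called lower was not computed.

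**Figure D5:**
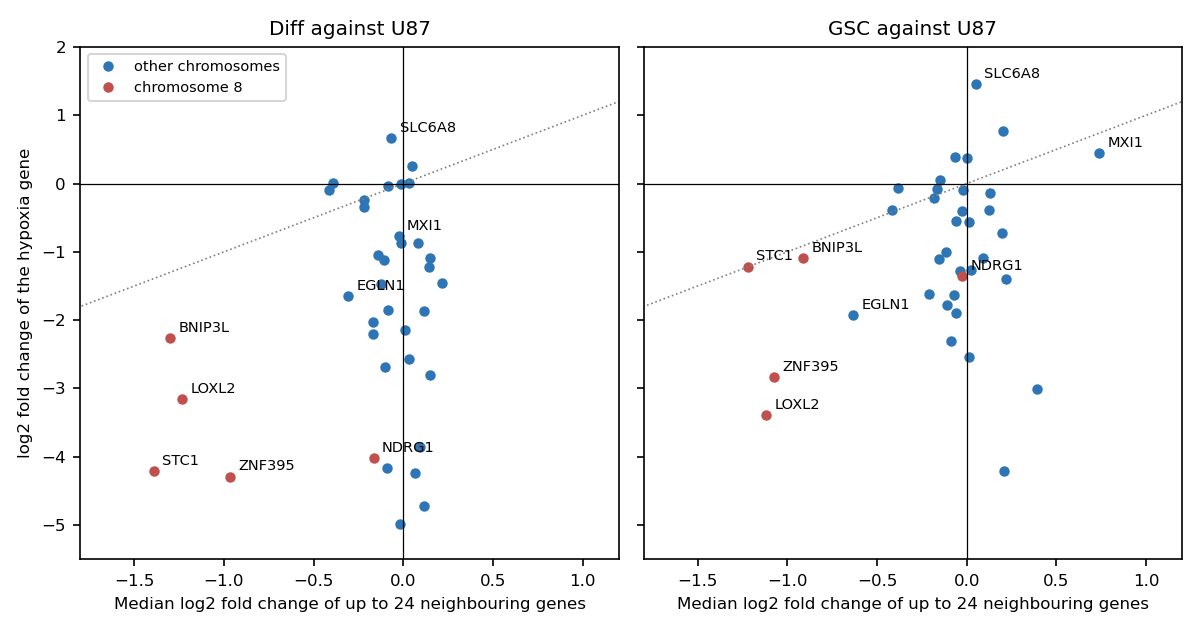
Log2 fold change of each of the 37 tested genes (vertical axis) against the median of up to 24 neighbouring tested genes (horizontal axis), in Diff cells and in GSCs against U87, with the line of equality dotted. The chromosome 8 genes STC1, BNIP3L, LOXL2 and ZNF395 stand on the left, with the lowest neighbourhood medians in each panel, and in GSCs STC1 lies on the dotted line, with EGLN1 at -0.63 and MXI1 at 0.74 on the horizontal axis.

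Further genes of the pathway were counted from lists that hold no member. Among 20 tested HIF pathway components (cofactors, ubiquitin ligase subunits and the like), 0 rose and 1 fell in Diff cells, 2 rose and 1 fell in GSCs, and from GSCs to Diff cells 0 rose and 2 fell (5, 5 and 4 were higher at an unadjusted p under 0.05 by limma), with medians of -0.11, -0.05 and -0.04. HIF3A, an alpha subunit with inhibitory splice forms, rose in GSCs, from 3.78, 4.61 and 3.16 TPM in U87 to 31.2, 26.6 and 23.4 in GSCs, with 3.01, 2.92 and 2.53 in Diff cells. Its log2 fold change was 2.53 (SE 0.14, limma adjusted p = 1.68e-06) from U87 to GSCs and -2.87 from GSCs to Diff cells. CITED2, which competes with HIF for the coactivators p300 and CBP, was at 118, 130.2 and 112 TPM in U87, 357, 319 and 339 in GSCs and 86.8, 84.2 and 82.02 in Diff cells, higher in GSCs than in U87 by 1.49 (SE 0.07, limma adjusted p = 4.40e-07), and HIF3A and CITED2 (-1.99) were the pair lower in Diff cells than in GSCs. LIMD1, a scaffold that brings PHD2 and VHL together, was lower in both irradiated lines, at -1.28 and -1.25. Of 25 further tested hypoxia targets outside glycolysis, 13 were lower and 1 higher in Diff cells, 3 lower and 2 higher in GSCs, and 6 lower in Diff cells against GSCs, with medians of -1.07, -0.43 and -0.56. The lower calls were 52%, 12% and 24% of these 25 genes, beside 6.36%, 7.53% and 5.36% of all tested genes, and of the 20 components they were 5%, 5% and 10%. SPAG4, DPYSL4 and VLDLR were lower in both irradiated lines, at -3.48, -3.33 and -3.00 in Diff cells and -1.85, -2.61 and -3.02 in GSCs, while HILPDA, a lipid droplet protein, differed from U87 by -2.67 (SE 0.28, limma adjusted p = 9.82e-05) in Diff cells and by -0.11 (SE 0.28, limma adjusted p = 0.779) in GSCs. HMOX1, the heme oxygenase that NRF2 also induces, was the 1 gene higher in Diff cells, at 1.45, and with PPP1R3B, a glycogen-targeting phosphatase subunit (1.57), it was higher in GSCs, at 1.65. For comparison, 15 of 20 glycolytic targets were lower in Diff cells, 11 in GSCs and 5 in Diff cells against GSCs, with medians of -1.42, -1.18 and -0.55 and SLC16A3 the lowest at -4.65 and -3.82 against U87, while 1, the glucose transporter SLC2A3, was higher in GSCs, at 1.36.

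The labels were checked against markers. Among 8 glioma and stem cell markers, SOX2 and PROM1 (CD133) were below 1 TPM in all 9 libraries and highest in GSCs. SOX2 was at 0, 0.115 and 0 TPM in U87, 0.809, 0.833 and 0.994 in GSCs and 0.185, 0.163 and 0.110 in Diff cells. PROM1 was at 0.121, 0.155 and 0.238 TPM in U87, 0.545, 0.596 and 0.379 in GSCs and 0.0156, 0.0366 and 0.0185 in Diff cells. For both genes the GSC libraries lay above the others without overlap, at levels where they were not tested. FABP7 was at 0.546, 0.986 and 0.662 TPM in U87, 4.38, 4.52 and 5.82 in GSCs and 3.27, 2.53 and 2.77 in Diff cells. Of the 6 that were tested, FABP7 was higher and NES and VIM were lower in Diff cells, and FABP7 was higher in GSCs, both against U87. By adjusted p alone, NES (-0.53), GFAP (-0.86) and VIM (-0.44) were lower in GSCs than in U87 (limma adjusted p = 0.00047, 0.00121 and 0.00135). In Diff cells GFAP (-0.78) and CD44 (-0.45) were likewise below U87, under the fold limit (limma adjusted p = 0.00271 and 0.000809). The summed level of the list was 2051 to 2113 TPM in U87, 1531 to 1816 in GSCs and 903 to 959 in Diff cells. Most of it came from VIM, with means of 1640, 1214 and 616 TPM in U87, GSCs and Diff cells, and CD44, with 405, 427 and 296. The sum therefore describes mainly VIM and CD44 and not the other markers. For 6 neuronal markers the sum was 24.5 to 29.7, 16.4 to 17.2 and 34.0 to 36.2 TPM. Of the 3 tested, MAP2 was higher in Diff cells and SNAP25 lower in GSCs, both against U87, and both were higher in Diff cells than in GSCs. SNAP25 was also lower in Diff cells than in U87, by -0.87 (SE 0.10, limma adjusted p = 0.000123), under the fold limit. TUBB3 did not pass the adjusted p in any comparison. RBFOX3, DCX and SYP were below 1 TPM in every library, DCX at 0 in 6 of the 9. The part of these differences in the results was not tested. Of all TPM per library, 5.73% to 9.79% went to RN7SL1 and 25.9% to 31.8% to mitochondrial genes, and leaving both out before rescaling changed no call of a member.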

How the data were processed

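The authors sequenced 9 RNA libraries, 3 from each cell line. The labels describe removal of ribosomal RNA and directional libraries, and the study's methods describe oligo(dT) enrichment. The submitters' processing notes name FastQC 0.11.9, Trimmomatic 0.39, HISAT2 2.2.1, featureCounts 2.0.5, R 4.2.0 and GRCh38, and the annotation and strand setting are not given in the sources used here. The authors deposited log2(TPM + 1) for 60606 genes, and back-transformed values summed to 1000000 per library. TPM keeps no depth, so the depth is unknown, no counting error was computed, and the spread between libraries is the only measure of precision. Adding 1 compresses fold changes of genes near 0.

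Groups came from the sample titles. The test, for genes whose mean TPM exceeded 1, was limma 3.58.1 (R 4.3.3, lmFit and eBayes with trend) in 1 fit of all 9 libraries, with Benjamini-Hochberg adjustment within each of 3 comparisons. Calls needed an adjusted p under 0.05 together with a log2 fold change beyond 1 in either direction. The procedure was tested on simulated data. Fold changes printed as folds are ratios of mean TPM. Coordinates and neighbours follow GENCODE 29, and promoter sequences are those of RefSeq (GRCh38.p14). Counts and figures were made in Python 3.11.15 (numpy 2.4.6, pandas 2.3.3, matplotlib 3.10.9). The members and lists were chosen with earlier results of these data known. All members are named, those called in any comparison with every library, and at most 5 called genes with the largest fold change from each other list. HMOX1, PPP1R3B, SLC2A3, WSB1, EFNA3, CSRP2 and the markers were named after their values were seen.

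Alternatives were a pseudocount of 0.1, no filter or a mean TPM over 5, only the lines compared, rescaling without RN7SL1 and mitochondrial genes, median-ratio scaling, quantile normalization, no trend, the replicate number as a block, a fold limit of 0.5, the omission of each library, 25 neighbours on either side, and ACGTG alone. The order of the 3 lines without GSC replicate 3 was added after seeing the data.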

Additional observations from a re-analysis of the deposited data

Results flagged for a closer look

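For 6 genes among the tested members and the other lists, the 2 irradiated lines differed from U87 in opposite directions. Both changes and the difference between Diff cells and GSCs passed the adjusted p of limma. MXI1 was the 1 such member, at -0.77 on the log2 scale in Diff cells and 0.45 in GSCs, both against U87, and a difference between them of -1.22 (SE 0.09, limma adjusted p = 2.68e-05). Among the other pathway genes, CITED2 differed by -1.99 (SE 0.07, limma adjusted p = 5.78e-07). WSB1, a ubiquitin ligase adaptor, differed by -0.90 (SE 0.10, limma adjusted p = 0.000224). Of the further targets, the ephrin gene EFNA3 differed by -1.93 (SE 0.14, limma adjusted p = 2.27e-05) and CSRP2 by -1.01 (SE 0.13, limma adjusted p = 0.000432). The glucose transporter SLC2A3 was higher in GSCs than in U87 by 1.36, lower in Diff cells at -0.88, and differed between the lines by -2.24 (SE 0.14, limma adjusted p = 1.04e-05). Changes in opposite directions already set the 2 lines apart, so the adjusted p of their difference adds little. The share of all tested genes with this pattern was not computed.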

How the results depend on the processing

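Of 60 calls of members in the 3 comparisons, 54 held under all 18 alternatives run for each comparison, and 0 reversed. The 6 lost under some alternative all stayed near the fold limit: KDM4B in Diff cells against U87 (-0.99 under median-ratio scaling and without U87 replicate 1), VEGFA and ANKRD37 in Diff cells against GSCs (-0.999 and -0.97 under median-ratio scaling), and BNIP3L, NDRG1 and P4HA2 in GSCs against U87 without single libraries. TMEM45A and PPFIA4 in Diff cells against GSCs passed the limit with a pseudocount of 0.1, at -1.09 and -1.13, and PPFIA4 also did so without Diff replicate 2 (-1.04) and without GSC replicate 3 (-1.13). The cause was not tested. At a fold limit of 0.5, P4HA2, JMJD6 and MXI1 joined the lower calls in Diff cells against U87. ADM, P4HA1 and MIR210HG joined those in GSCs against U87. Higher calls against U87 were 1 in Diff cells and 2 in GSCs. Between Diff cells and GSCs 23 members were called, all 23 lower in Diff cells. The shares of all tested genes at a limit of 0.5 were not computed, so these counts have no background beside them. The median log2 fold change of the members in Diff cells against GSCs was -0.75 without a filter, -0.73 without RN7SL1 and mitochondrial genes, -0.72 under median-ratio scaling and -0.75 after quantile normalization. With each library left out in turn, 24 to 25 members were called in Diff cells (24 to 25 lower) and 19 to 21 in GSCs (18 to 20 lower), both against U87, and 13 to 15 between Diff cells and GSCs (13 to 15 lower), and the medians were -1.70 to -1.57, -1.11 to -0.997 and -0.79 to -0.74. ACGTG alone was in 50% of the member windows. With the replicate number as a block, 25, 21 and 14 members were called, as without it. Same-numbered libraries did not deviate together (correlations of -0.04 to 0.05), so no pairing by number was seen. Whether same-numbered libraries were prepared together is not given in the sources used here. The sign of 8 differences that were not called, among them those of HIF1A, EGLN2, HIF1AN, VHL and BHLHE41, changed under some alternative.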
